A study of Mus musculus with 2 samples.

Results

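The mir-30 family was followed across its 3 mouse loci in heart. Its 6 genes, Mir30a, Mir30b, Mir30c-1, Mir30c-2, Mir30d and Mir30e, were taken by symbol from the 2202 miRNA genes counted in each library, by a rule that reads no measured value, though earlier results of these data were known when the family was chosen. MicroRNA-seq libraries had been made from total RNA of heart tissue of male B6CASTF1/J mice, an F1 hybrid obtained from The Jackson Laboratory. The age is 36 days by the age label, while a free-text label writes the same number with months as its unit. There was 1 group of 2 libraries, numbered as biological replicates 1 and 2, and no treatment, mutant or second tissue. The libraries name differently numbered males but the same donor record, so spreads are those between these samples. With 1 group, the questions the data can answer are how strongly each mir-30 gene was represented in heart and how far the libraries differed in it.

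MicroRNAs are short RNAs cut from a hairpin precursor that repress mRNAs matching their seed, the bases near the 5′ end of the mature strand. The mir-30 miRNAs share a seed on the 5′ arm, and the family is known to be abundant in heart. There it is known for repressing the mRNA of connective tissue growth factor, a matrix protein, together with miR-133, and for repressing Becn1, an inducer of autophagy. The family is encoded as 3 pairs of neighbouring hairpins, each pair holding 1 of Mir30a, Mir30d and Mir30e beside 1 of Mir30b, Mir30c-1 and Mir30c-2.

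RefSeq sequences (GRCm38.p6) were matched by symbol for 4 of the 6 genes, Mir30a, Mir30c-1, Mir30c-2 and Mir30e, and not for Mir30b and Mir30d. The 5′ arms are shown first because they carry the seed that defines the family. Capitals mark the seed, bases 2 to 8 counted from the 5′ end.
miR-30a-5p: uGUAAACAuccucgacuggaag
miR-30e-5p: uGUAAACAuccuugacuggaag
miR-30c-5p: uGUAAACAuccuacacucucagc
miR-384-5p: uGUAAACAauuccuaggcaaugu
miR-30f: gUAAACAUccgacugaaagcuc

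All 3 mir-30 5′ arms have the seed GUAAACA, and over 1679 mature miRNA names in the table the same seed at bases 2 to 8 was found in 1 other, miR-384-5p. In miR-30f the same 7 letters begin at base 1, so that its seed is shifted by 1 base. The 5′ arms of Mir30a and Mir30e differ by 1 substitution, C13U (miR-30a-5p base first, miR-30e-5p base last). Mature miR-30c-5p is the same in both Mir30c hairpins.

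The 3′ arms separate the genes into subgroups by another seed, again in capitals.
miR-30a-3p: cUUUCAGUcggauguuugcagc
miR-30e-3p: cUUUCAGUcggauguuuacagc
miR-30c-1-3p: cUGGGAGAggguuguuuacucc
miR-30c-2-3p: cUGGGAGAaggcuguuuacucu

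The 3′ arms of Mir30a and Mir30e share the seed UUUCAGU and differ by G18A. Those of Mir30c-1 and Mir30c-2 share UGGGAGA and differ by the 3 substitutions G9A, U12C and C22U (miR-30c-1-3p base first, miR-30c-2-3p base last). The counts below sum all reads placed at a hairpin, so 5′ and 3′ arms are not separated.

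The Mir30c hairpins are shown whole because their shared stretch bears on which reads can be placed. Capitals mark the longest stretch they have in common, 28 nt.
Mir30c-1: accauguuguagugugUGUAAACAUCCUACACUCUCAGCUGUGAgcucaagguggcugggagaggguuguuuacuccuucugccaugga
Mir30c-2: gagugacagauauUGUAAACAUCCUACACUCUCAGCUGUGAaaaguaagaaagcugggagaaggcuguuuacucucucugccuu

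This stretch contains the whole of miR-30c-5p. Reads that mapped to several places were given to no gene in these tables. A read of exactly miR-30c-5p matches both hairpins, so it is counted for neither. Mir30c-1 and Mir30c-2 are thus counted from the reads that could be placed at 1 of them. Their levels leave out a part that was not measured, so they are uncertain and too low by that part. Among the other pairs of these 4 hairpins the longest shared stretch was 18 nt, between Mir30a and Mir30e. By annotated hairpins, Mir30c-1 and Mir30c-2 were the members that share 22 nt or more with another miRNA gene, each with the other, as do 1023 of all 2202 genes.

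Library 1 held 5479149 reads, of which 1999362 fell on the sense strand of a miRNA gene, and library 2 held 4893073, of which 1862526 did. A further 41.5% and 42.9% mapped to several places. Levels are counts per 1000000 of these assigned sense-strand reads (CPM), written as mean ± SD over n = 2 libraries where both are pooled. The labels give fragments below 30 nt, so a read stands for a short RNA and no scaling by hairpin length was made. Intervals are exact 95% intervals that cover counting error only, and PCR reads without molecular identifiers are not independent molecules. All 7 heart muscle markers had reads, led by Mir208a, whose host is a cardiac myosin gene, at 7004 CPM in library 1 and 3393 in library 2. The Mir1a and Mir133a loci among them, each sharing sequence with another locus, were at 57.5 CPM or less.

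The mir-30 genes together held 59024 reads in library 1 and 63965 in library 2. This was 2.95% of assigned reads in library 1 (interval 2.93 to 2.98) and 3.43% in library 2 (3.41 to 3.46). The mean share was 3.19% ± 0.341. When genes were grouped by the number in their name, mir-30 ranked 9 in both libraries among 559 groups with a read. The group above it by mean, mir-99, stood at 3.78% ± 0.0138 and did not overlap it. The group below, mir-26, had 3.05% in library 1 and 2.20% in library 2, so its range overlapped that of mir-30. As reads mapping to several places are missing from every group, this order holds for counted reads.

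Mir30d, Mir30a and Mir30e carried almost all of the family's counted reads, and Mir30c-2, Mir30c-1 and Mir30b the small rest. The first set made up 94.6% of mir-30 reads in library 1 and 95.2% in library 2, a mean of 94.9% ± 0.411. In counted reads, each of the 3 loci thus had 1 hairpin with a high count beside 1 with a low count. Reads of exactly miR-30c-5p are in neither Mir30c count, so the share of 94.9% can be too high.

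**Figure D1:**
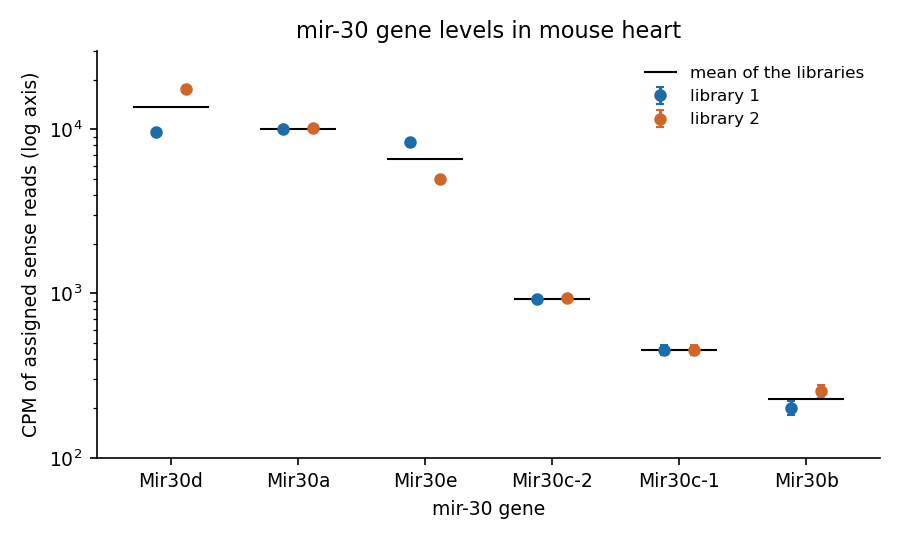
Level of each mir-30 gene in each library, in CPM of assigned sense-strand reads on a log axis, with exact 95% counting intervals (mostly smaller than the points) and the mean of the libraries as a line. Mir30d, Mir30a and Mir30e lie at 4941 CPM or more, and Mir30c-2, Mir30c-1 and Mir30b at 936 CPM or less. Reads of exactly miR-30c-5p are not in the values of the Mir30c genes.

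Mir30d lies on the minus strand of chromosome 15 (mm10 chr15:68341208-68341289), in an exon of the annotated long noncoding RNA Gm20732 and overlapping the annotated transcript Gm37296 by 9 bases. It had 19321 reads, or 9664 CPM, in library 1 and 32686 reads, or 17549 CPM, in library 2, a mean of 13606 ± 5576 CPM. Library 2 was well above library 1, and the SD was 41.0% of the mean where counting alone gives 0.719% and 0.553%. Mir30d was gene 18 by level in library 1 and gene 14 in library 2.

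Mir30a lies on the plus strand of chromosome 1 (chr1:23272269-23272339) and overlaps no other annotated gene. It had 19909 reads, or 9958 CPM, in library 1 and 19020 reads, or 10212 CPM, in library 2. The libraries were close, at 10085 ± 179.8 CPM, an SD of 1.78% of the mean, and the gene ranked 17 in both. The values of Mir30a fell inside the range of Mir30d, so the order of these 2 genes was not set beyond the spread between libraries.

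Mir30e lies on the minus strand of chromosome 4 (chr4:120772606-120772697), in an intron of all 6 annotated Nfyc transcripts that span it. Nfyc encodes a subunit of the CCAAT-binding transcription factor NF-Y. It had 16630 reads, or 8318 CPM, in library 1 and 9202 reads, or 4941 CPM, in library 2, a mean of 6629 ± 2388 CPM. Here library 1 was the higher one, the opposite of Mir30d, and the SD was 36.0% of the mean. Neither value reached those of Mir30a or Mir30d, so Mir30e came after them in both libraries, ranked 20 and 27 among all genes.

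Mir30c-2, on the plus strand of chromosome 1 (chr1:23291701-23291784), lies within an exon of the long noncoding RNA Gm27028. It had 1854 reads, or 927 CPM, in library 1 and 1743 reads, or 936 CPM, in library 2, a mean of 932 ± 6.03 CPM. Mir30c-1, on the minus strand of chromosome 4 (chr4:120769534-120769622), lies in an intron of the same 6 Nfyc transcripts as Mir30e. It had 908 reads, or 454 CPM, in library 1 and 841 reads, or 452 CPM, in library 2, a mean of 453 ± 1.84 CPM. The SDs of these genes were 0.647% and 0.407% of the mean, smaller than counting error alone, which is 2.32% or more for each of them in each library. Of the reads that could be placed, Mir30c-2 took 2.04 times as many as Mir30c-1 in library 1 (interval 1.88 to 2.21) and 2.07 times as many in library 2 (1.91 to 2.25). The proportion of the Mir30c loci did not differ beyond counting error between the libraries, for the part of their reads that is counted.

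Mir30b, on the minus strand of chromosome 15 (chr15:68337415-68337510), overlaps an exon of the noncoding transcript Gm26621 by 16 bases. It had 402 reads, or 201 CPM, in library 1 and 473 reads, or 254 CPM, in library 2, a mean of 228 ± 37.4 CPM. It was the lowest member in both libraries, below Mir30c-1. The Mir30b hairpin shares no stretch of 22 nt with another annotated miRNA gene, and shorter shared stretches were not examined for it. Down the order from Mir30a through Mir30e, Mir30c-2 and Mir30c-1 to Mir30b, no member's range overlapped that of the next.

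The relatives by seed were almost without reads. Mir384, on chromosome X, whose 5′ arm has the family seed, had 1 read in each library, 0.5 CPM in library 1 and 0.537 CPM in library 2. Mir30f is annotated on the strand opposite Mir30e at the same 92 bases, and mature miR-30f overlaps the place of miR-30e-3p by 19 bases. No read was counted for Mir30f on its own strand, and a count of 0 still permits 3 counts, or 1.5 CPM for library 1 and 1.61 CPM for library 2. Because of this opposite gene, Mir30e is listed at 0 in the column for both strands together, and its reads are 3.84% of the reads called ambiguous there in library 1 and 2.04% in library 2. Antisense counts of all 6 members were 0 in both libraries.

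The libraries were then compared gene by gene. The family sum was 1.16-fold higher in library 2. Its make-up differed as well, because Mir30d was higher in library 2 and Mir30e higher in library 1. Mir30e took 28.2% of mir-30 reads in library 1 (27.8 to 28.5) and 14.4% in library 2 (14.1 to 14.7). Mir30d took 32.7% in library 1 (32.4 to 33.1) and 51.1% in library 2 (50.7 to 51.5). Mir30a took 33.7% in library 1 (33.3 to 34.1) and 29.7% in library 2 (29.4 to 30.1). Mir30a was thus the leading member in library 1 and Mir30d in library 2. There were 1.16 Mir30d reads for each Mir30e read in library 1 (1.14 to 1.19) and 3.55 in library 2 (3.47 to 3.64), a ratio that does not depend on how the libraries are scaled.

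**Figure D2:**
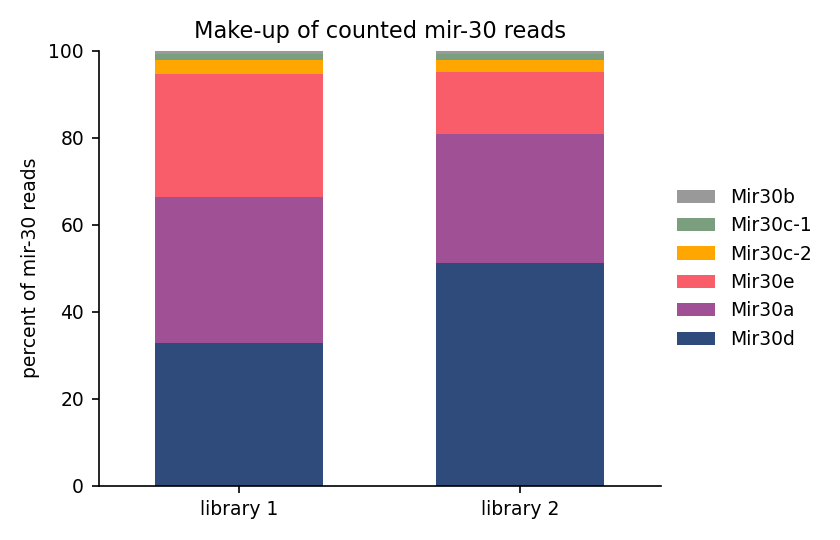
Share of each mir-30 gene in the counted mir-30 reads of each library, in percent. Mir30d takes 32.7% in library 1 and 51.1% in library 2, and Mir30e 28.2% and 14.4%.

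As log2 ratios of library 1 over library 2, scaled to the assigned totals, Mir30d was at -0.86 (interval -0.89 to -0.84) and Mir30e at 0.75 (0.71 to 0.79). Mir30d was 1.82-fold higher in library 2 and Mir30e 1.68-fold higher in library 1. Mir30b was at -0.34 (-0.53 to -0.14), Mir30a at -0.04 (-0.07 to -0.01), Mir30c-2 at -0.01 (-0.11 to 0.08) and Mir30c-1 at 0.01 (-0.13 to 0.15), and the family sum was at -0.22 (-0.23 to -0.20). On this scale the intervals of both Mir30c genes included 0. These ratios set 1 library against 1 other, so they have no replicate check and no p-value is given.

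By a fold of 1.5 or more, library 1 was above library 2 for 1 of the 6 members and below it for 1. Among the 344 genes with 10 or more reads summed over the libraries, 144 (41.9%) were that far apart, 94 (27.3%) higher in library 1 and 50 (14.5%) higher in library 2. Among the 141 genes whose mean level reached 100 CPM, to which all 6 members belong, the share was 28.4%. The members' count of 2 in 6 is near that background. In size, 21 of these 141 genes differed more than Mir30d and 28 more than Mir30e, while 131 differed more than Mir30a, 136 more than Mir30c-2 and 137 more than Mir30c-1.

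The median log2 ratio was -0.02 over the members and 0.19 over all tested genes. Scaling with TMM factors, which rest on a trimmed mean of log ratios over genes, moved every ratio by -0.19. With it, 66 of the 344 tested genes were 1.5-fold or more higher in library 1 and 70 in library 2. On that scale Mir30d stood at -1.05 and Mir30e at 0.56, short of 1.5-fold, while Mir30c-1 changed sign to -0.18 (interval -0.32 to -0.04) and Mir30c-2 was at -0.20 (-0.30 to -0.11), so that neither interval included 0. Mir30d kept the same direction on both scales, as did Mir30e. With TMM the family sum was at -0.41 (-0.42 to -0.39).

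**Figure D3:**
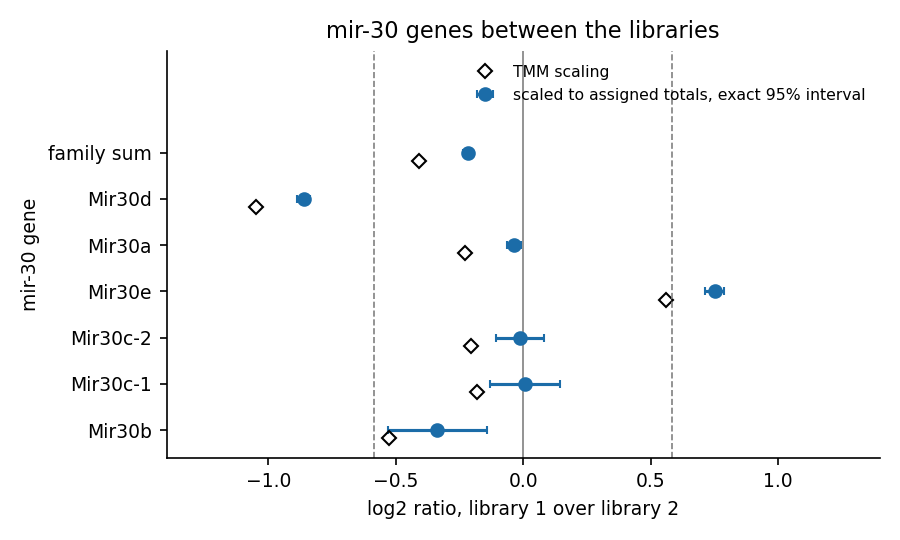
Log2 ratio of library 1 over library 2 for the family sum and each mir-30 gene. Filled points with exact 95% intervals are scaled to assigned totals, open diamonds are TMM-scaled, and dashed lines mark 1.5-fold; Mir30d (-0.86) lies beyond the left line, and Mir30e (0.75, or 0.56 with TMM) beyond the right one on the first scale only.

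**Figure D4:**
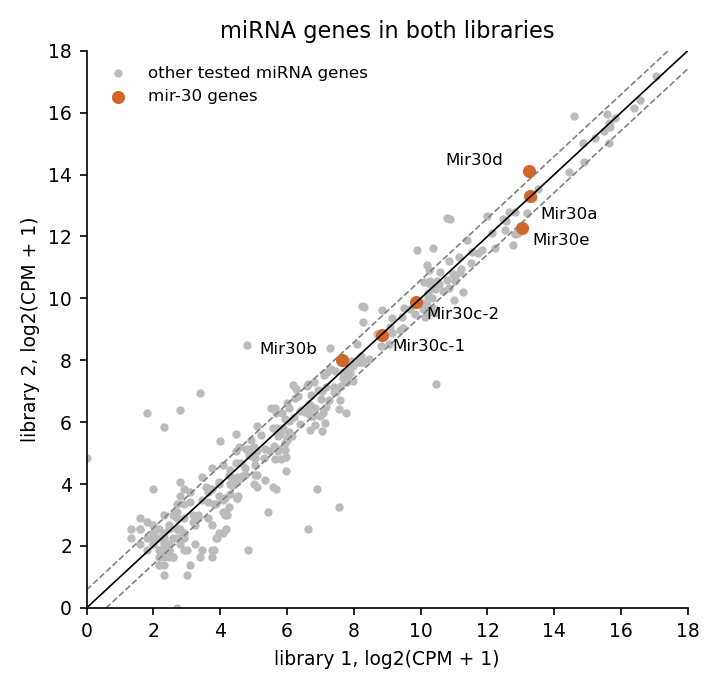
Levels of the 344 tested miRNA genes as log2(CPM + 1) in library 1 (x axis) and library 2 (y axis), with the mir-30 genes in orange, equality as a solid line and 1.5-fold as dashed lines. Mir30d lies above the upper dashed line, Mir30e below the lower one, and the other mir-30 genes between them.

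Some marker genes of cell types also differed between the libraries, though no endothelial, smooth muscle or leukocyte marker was 1.5-fold apart. Of the 7 heart muscle markers, 4 had 10 or more reads, of which Mir208a was over 1.5-fold higher in library 1 and Mir499 in library 2. The shares over all tested genes were 27.3% and 14.5%. All 7 summed to 8556 CPM in library 1 and 6697 in library 2. The endothelial marker Mir126a stood at 48924 CPM in library 1 and 63819 in library 2. The 2 smooth muscle markers summed to 39517 and 38697 CPM, the 4 leukocyte markers to 5357 and 4950, and the 3 erythroid markers to 2452 and 1970. Of the erythroid markers, Mir451a was 1.67-fold higher in library 1, where 27.3% of all tested genes were 1.5-fold or more higher. Mir486 and Mir144 were 1.03-fold and 1.02-fold higher there. The 4 fibroblast markers summed to 2484 CPM in library 1 and 1201 in library 2, with Mir199a-1 at 0. Nearly all of this was Mir214, at 2471 CPM in library 1 and 1190 in library 2. Mir199a-2 had 17 and 6 reads, and Mir199b went the other way with 8 and 13. The 7 epithelial markers summed to 460.1 CPM in library 1 and 947 in library 2, of which 6 were over 1.5-fold higher in library 2, where the share over all tested genes was 14.5%, and 1, Mir429, was so in library 1. In tissue RNA, fewer cells of a type and less RNA per cell cannot be told apart, and the part of cell make-up in the Mir30d and Mir30e differences was not tested.

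The mir-30 pairs were next compared within their loci, which takes library scaling out. On chromosome 1, Mir30a had 10.7 reads for each Mir30c-2 read in library 1 (10.2 to 11.3) and 10.9 in library 2 (10.4 to 11.5). On chromosome 4, Mir30e had 18.3 reads for each Mir30c-1 read in library 1 (17.1 to 19.6) and 10.9 in library 2 (10.2 to 11.8). On chromosome 15, Mir30d had 48.1 reads for each Mir30b read in library 1 (43.5 to 53.2) and 69.1 in library 2 (63.1 to 75.8). The ratio on chromosome 1 did not differ between libraries beyond counting error, whereas those on chromosomes 4 and 15 had intervals that did not overlap between libraries. As mean log2 ratios these were 3.44 ± 0.0164, 3.82 ± 0.526 and 5.85 ± 0.371. Mir30c-2 and Mir30c-1 are counted without reads of exactly miR-30c-5p, so the ratios on chromosomes 1 and 4 hold for counted reads and can be too high.

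In counted reads, neighbours on chromosomes 4 and 15 differed between libraries by unequal amounts. The chromosome 4 locus summed to 8772 CPM in library 1 and 5392 in library 2, and the chromosome 15 locus to 9865 and 17803, while the chromosome 1 locus was steady at 10885 and 11148. On chromosome 4, Mir30e differed between libraries and Mir30c-1, 2983 bp away in the same host gene, did so by less than counting error when scaled to assigned totals. Mir30c-1 is counted without reads of exactly miR-30c-5p, so whether all of its reads were as steady is not known. On chromosome 15, Mir30b, 3697 bp from Mir30d, was higher in library 2 as Mir30d was, but by 1.26-fold against 1.82-fold.

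Uneven partners were common among miRNA genes. Over 82 other pairs of neighbouring miRNA genes on the same strand within 10 kb, with 10 or more reads for each gene, the mean log2 ratio of the higher partner over the lower had a median of 2.54 and quartiles of 0.96 and 4.30. The ratio was larger than that of Mir30d over Mir30b in 6 of these pairs, than that of Mir30e over Mir30c-1 in 26 and than that of Mir30a over Mir30c-2 in 33. The places of both Mir30c pairs in this order are uncertain, since the Mir30c genes are counted without reads of exactly miR-30c-5p. Some of the other pairs hold a gene that shares sequence in the same way. The log2 ratio of partners differed between libraries by a median of 0.48. It differed by more than in the chromosome 15 pair (0.52) in 38 pairs, by more than in the chromosome 4 pair (0.74) in 27 and by more than in the chromosome 1 pair (0.02) in 80. Mir30a and Mir30c-2 lie 19361 bp apart, beyond that reach. With a reach of 20 kb, chosen after the data were seen, there were 83 other pairs and these last counts were 39, 27 and 81.

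**Figure D5:**
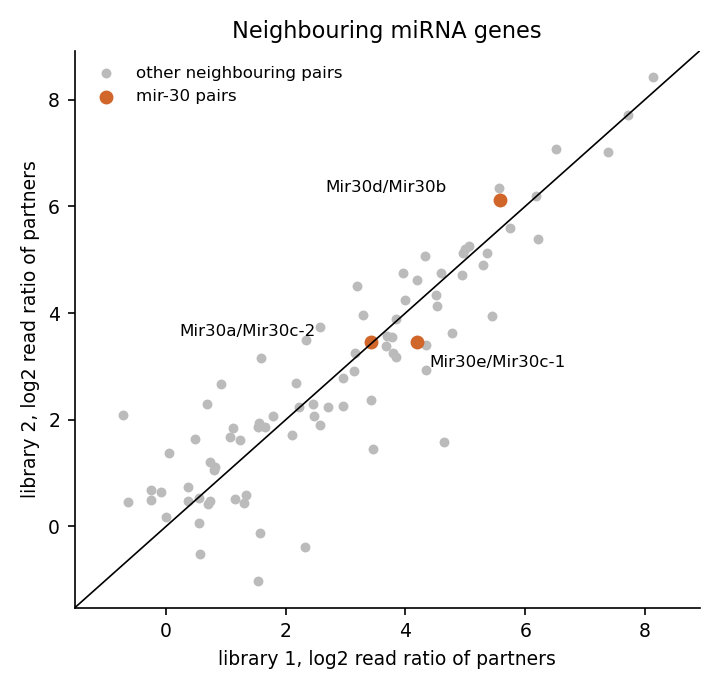
Log2 read ratio of neighbouring miRNA genes on the same strand (gaps up to 20 kb), the partner with the higher mean over the lower one, in library 1 (x axis) and library 2 (y axis), with equality as a line. The mir-30 pairs, in orange, lie at mean log2 ratios of 3.44, 3.82 and 5.85, and Mir30a over Mir30c-2 lies on the line.

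Some genes outside the family had a level like that of a member in both libraries. Likeness was the distance in log2(CPM + 1) over the 2 libraries, with the 2 nearest genes taken for each member. For Mir30e these were Mir99b (7712 CPM in library 1 and 4443 in library 2, distance 0.19) and Mir93 (7212 and 4297, distance 0.29). For Mir30a they were Mir125a (10516 and 9630, distance 0.12) and Mir191 (11799 and 11970.3, distance 0.34). Mir30d had no close match, its nearest genes being Mir191 (distance 0.62) and Mir125a (0.87), neither of which was 1.5-fold apart between the libraries.

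For Mir30c-2 the nearest were Mir324 (distance 0.18) and Mir425 (0.27), and for Mir30c-1 they were Mir872 (0.06) and Mirlet7c-1 (0.13). For Mir30b they were Mir574 (0.23) and Mir3102 (0.26). The distance uses the levels of both libraries, so a close match has a like level and direction by choice.

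A list of 11 other miRNAs known for acting on matrix genes in heart was set beside the family. Together they had 8923 CPM in library 1 and 12197 in library 2, a mean of 10560.1 ± 2315 against 31932 ± 3409 for the mir-30 genes. Mir133a-1 and Mir133a-2, which share the repression of connective tissue growth factor with mir-30, had 5 and 6 reads in library 1 and 3 and 2 in library 2, and like 8 of the 11 listed genes they share 22 nt with another locus, so that they can be undercounted.

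Of the 8 matrix miRNAs with 10 or more reads, 2 were over 1.5-fold higher in library 1 and 3 in library 2, with a median log2 ratio of -0.36. Over all tested genes these shares were 27.3% and 14.5%, and 2 of the 5 genes, Mir199a-2 and Mir199b, rested on few reads. Mir214, known from fibroblasts, had 2471 CPM in library 1 and 1190.3 in library 2, and Mir199a-2 had 17 and 6 reads. Mir21a, a miRNA raised in many stressed tissues, had 1776 CPM in library 1 and 6143 in library 2, Mir29c had 156 and 334, and Mir199b had 8 and 13 reads. Mir29a, a repressor of collagen mRNAs with the highest mean of the list, had 4468 CPM in library 1 and 4472 in library 2, where Mir21a was above it. Mir29b-1 had 26.5 CPM in library 1 and 34.4 in library 2, and Mir29b-2 had 7.5 CPM in library 1 and 9.66 in library 2.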

How the data were processed

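The 2 small RNA libraries from mouse heart were analysed. The authors deposited raw, unnormalized read counts per miRNA gene in 3 columns (strands pooled, sense, antisense), without headers. Per the file headers deposited beside the tables, assembly mm10 and annotation M21 were used. Aligner and counter were not given in the sources used here. Which column is which strand was read from the values. The 4 status rows named no gene (36.5% and 38.1% of reads were assigned) and stayed out of totals.

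All 2202 gene identifiers matched GENCODE M21. Sense counts were scaled to assigned totals, with 0.5 added for log2 ratios. Share and ratio intervals are exact binomial ones (SciPy 1.17.1), and the ratio step was tested on simulated data. Genes with 10 or more summed reads were compared across libraries at 1.5-fold. TMM factors came from edgeR 4.0.16 and size factors from DESeq2 1.42.0. The libraries were not copies (chi-square 92268, 343 degrees of freedom). Neighbouring genes were paired within 10 kb.

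Named are the members, Mir30f and Mir384, the 2 nearest genes of each member, overlapping genes, and the matrix miRNAs and cell markers as listed. Members and lists were chosen with earlier results of these data known. Alternatives were the strand column, denominator, scaling, pseudocount, filter, fold, members counted and each library left out.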

Additional observations from a re-analysis of the deposited data

Results flagged for a closer look

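Reads that mapped to several places were a signal outside the counted genes, at 2273922 in library 1 and 2098983 in library 2. How many came from the Mir30c loci, which share all of miR-30c-5p, was not measured, since these reads are not traced to a gene in the tables. With 1 group of 2 libraries, no test of outlying samples or of groups was made.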

How the results depend on the processing

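The mean family share of 3.19% became 1.19% with all reads as denominator and 3.73% without Mir378a in the total. Over genes sharing no 22 nt stretch, without the Mir30c genes or with Mir30f added, it moved by less than 1 SD. With both strands together, where Mir30e is listed at 0, the mean was 3.29% but the SD rose from 0.341 to 0.829. It was 2.95% in library 1 alone and 3.43% in library 2 alone. With 2 libraries, leaving 1 out moves a mean by less than 1 SD by construction, so this does not test stability. The family's log2 ratio of library 1 over library 2 (-0.22) was -0.41 with TMM, -0.41 with DESeq2, -0.24 without Mir378a and -0.52 with both strands together, where Mir30e is listed at 0. For Mir30e, TMM and DESeq2 scaling gave 0.56 and 0.56, short of 1.5-fold; Mir30d stayed past it in all 5 alternatives. The 144 genes over 1.5-fold apart were 136 with TMM or DESeq2, 40 at a mean of 100 CPM or more, 389 with 1 count or more and 73 at 2-fold. With a pseudocount of 1 the mean log2 partner ratios stayed at 3.44 for Mir30a over Mir30c-2, 5.85 for Mir30d over Mir30b and 3.82 for Mir30e over Mir30c-1. The other alternatives could not move them by 1 SD. Counts for both strands equal the sense counts in the Mir30a and Mir30d pairs, and Mir30e over Mir30c-1 has no value there. Leaving out 1 of 2 libraries stays within 1 SD by construction. Among single members, 28 values moved, 2 fell short of the threshold and 35 stayed. Levels with 1 library left out are among the 35 by construction. The cause of the moves was not tested. Counting error limits Mir30b most, at 4.99% in library 1. No paired analysis was possible because there is only 1 group.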
